A study of Mus musculus with 6 samples.

Results

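The genes of MHC class I antigen presentation were followed in Tregs, the regulatory branch of CD4 T cells, which dampens immune reactions, with and without Nfkb2. The set holds the classical and nonclassical heavy chain genes named H2-K, H2-D, H2-Q, H2-T or H2-M with a number, the light chain gene B2m, the peptide transporter and loading genes Tap1, Tap2 and Tapbp, the immunoproteasome genes Psmb8, Psmb9 and Psmb10, and the transactivator gene Nlrc5. Members were chosen by gene symbol alone, and 38 of the 55573 genes listed met the rule. H2-L, which the rule also names, is not a symbol of the annotation used here.

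The Tregs were sorted from the spleen of bi-parental bone marrow chimeras, mice whose blood system is rebuilt from mixed donor marrow, at over 90% purity, and rested in medium for 2 h before lysis. Libraries were made with the TruSeq RNA v2 kit, which does not mark strand, from 3 samples labelled Nfkb2-/- and 3 labelled wild type, which the labels call biological repeats. Both genotypes thus share the chimera setting, the sort and the rest, and the sources used here name no other treatment. For host, donor strain, H2 haplotype and age, the sources used here give nothing. Nothing in the labels says how many animals stand behind a sample or whether both genotypes came from the same chimeras, so p-values measure the spread between these samples only.

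MHC class I molecules show peptides from inside the cell to CD8 T cells and natural killer cells. The proteasome cuts proteins, the TAP transporter carries the peptides into the endoplasmic reticulum, tapasin helps to load them, and a heavy chain with the light chain beta2-microglobulin carries them to the surface. Lymphocytes hold high levels of these molecules, NLRC5 drives transcription of the genes through a conserved promoter module, and NF-kB and interferon-regulated factors bind an enhancer beside it. Nfkb2 encodes p100, an NF-kB family member that is cut to p52.

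Promoters of 5 abundant or well-known members are shown because they hold letters that resemble NF-kB sites, the kind of site the protein family of Nfkb2 binds. The stretches below come from the RefSeq promoter table (GRCm38.p6, from 250 bases before to 50 after a transcript start) and read 5′ to 3′ on the strand of the gene. They lie before the start and in no annotated exon. Capitals mark matches on either strand to an NF-kB type motif (GGG, any 5 bases, CC), an interferon type motif (GAAA, any 2 bases, GAAA) and its shorter form GAANNGAAA, CCAAT, and TGACG, the core of a cyclic AMP element. Neighbouring matches can overlap, and the shorter interferon motif was added after the letters were seen. The H2-K1 stretch is chr17:34000353-34000480 (minus strand), H2-Q6 is chr17:35424655-35424805, H2-Q7 is chr17:35439016-35439149, H2-M3 is chr17:37270086-37270219 and B2m is chr2:122147494-122147644, the last 4 on the plus strand.
H2-K1: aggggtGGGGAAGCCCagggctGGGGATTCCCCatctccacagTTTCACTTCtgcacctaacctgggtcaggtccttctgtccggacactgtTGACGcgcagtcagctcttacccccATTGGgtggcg
H2-Q6: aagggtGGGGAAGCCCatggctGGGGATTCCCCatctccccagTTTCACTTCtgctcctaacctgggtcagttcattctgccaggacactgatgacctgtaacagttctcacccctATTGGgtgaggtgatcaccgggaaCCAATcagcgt
H2-Q7: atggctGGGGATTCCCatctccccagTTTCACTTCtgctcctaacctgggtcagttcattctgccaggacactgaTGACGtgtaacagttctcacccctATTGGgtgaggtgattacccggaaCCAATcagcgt
H2-M3: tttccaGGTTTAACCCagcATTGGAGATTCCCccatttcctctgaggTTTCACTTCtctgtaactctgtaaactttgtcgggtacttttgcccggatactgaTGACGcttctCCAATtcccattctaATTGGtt
B2m: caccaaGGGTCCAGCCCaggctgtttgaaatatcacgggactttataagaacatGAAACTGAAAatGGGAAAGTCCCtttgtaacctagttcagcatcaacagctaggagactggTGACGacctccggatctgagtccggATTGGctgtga

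In the H2-K1, H2-Q6 and H2-Q7 stretches the NF-kB type matches stood first, then the interferon type, then CCAAT on one strand or the other. In H2-M3 a CCAAT match on the other strand also overlapped an NF-kB type match, before the interferon type. In B2m NF-kB type matches stood both before and after the interferon type match. TGACG was found in the stretches of H2-K1, H2-Q7, H2-M3 and B2m but not of H2-Q6. The table held promoters of 28 of the 38 members. The NF-kB type motif was found in 13 of these 28 (46.4%), against 50.8% of the 32851 promoter windows in the table. Among genes that passed the count filter, it was found in 11 of 16 member promoters and in 8 of 10 heavy chain promoters. In the same 10 promoters CCAAT was found in 9, GAANNGAAA in 7 and TGACG in 6. The share over all genes that passed the filter was not counted, so these subsets have no background. CCAAT was found in 23 of 28 (82.1%) against 37.4% of all windows, and TGACG in 14 of 28 (50%) against 20.8%. The longer interferon type motif was found in 3 of 28 (10.7%) against 3.44%. Its shorter form was found in 8 of 28 (28.6%) against 7.52%. That form was added after letters of these promoters were seen, so its excess over all windows cannot count as a test. The windows of Psmb9 and Tap1 overlap and many members are paralogs, so the 28 promoters are not independent. A match describes letters and not a bound site.

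The libraries held 12005273 to 17278521 counts, of which the 38 members made up 1.57% to 2.00%. Nfkb2 was detected at a lower level in each Nfkb2-/- library (269 to 324 CPM, which are counts scaled to a common library size) than in wild type (545 to 558 CPM), with a log2 fold change of -0.94 (edgeR adjusted p = 0.0203), but was not absent. Xist was at 592 to 883 CPM in the Nfkb2-/- libraries and 1.94 to 16.5 CPM in wild type. The sum of 4 Y-linked genes was 40.0, 138 and 275 CPM in Nfkb2-/- replicates 1 to 3, against 465 to 498 CPM in wild type. Donor sex and genotype thus cannot be told apart. The male signal was below wild type but present in Nfkb2-/-, and it rose from replicate 1 to replicate 3, so this group was not uniform. Where that signal and the remaining Nfkb2 counts came from was not tested. Summed over 8 Treg and CD4 T cell markers, the level was 4354 to 4891 CPM in Nfkb2-/- and 3439 to 5344 CPM in wild type, with Foxp3 high in all 6 libraries (407 to 622 CPM). The 13 B cell markers summed to 536 to 599.5 CPM in Nfkb2-/- and 369 to 1063 CPM in wild type, mostly Ighm (66.5% to 92.3%). Without Ighm they summed to 41.1 to 74.6 CPM in Nfkb2-/- and to 112, 356 and 247 CPM in wild-type replicates 1 to 3. Sums for 2 CD8 T cell, 5 NK cell, 8 macrophage, 6 dendritic cell and 4 neutrophil markers were at most 128 CPM in every library, and no marker of these lists was at 0 in all 6. Dendritic cell markers summed to 88.8 to 128 CPM in Nfkb2-/-, mostly Zbtb46, against 23.7 to 59.1 CPM. Zbtb46 alone was higher in Nfkb2-/- (means 102 and 27.8 CPM). The rest of that list had lower means in Nfkb2-/- than in wild type, with overlapping groups. These were Flt3 (0.585 and 1.86 CPM), Xcr1 (1.97 and 2.35), Itgax (1.58 and 2.56), Siglech (2.45 and 7.25) and Clec9a (0.230 and 0.671). In wild-type replicate 2 Zbtb46 was at 24.9 CPM and Siglech at 20.8 CPM. Wild-type replicate 1 differed most from the rest in the members, as given further on. In bulk samples fewer cells of a type and less RNA per cell cannot be told apart.

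Some class I genes, such as B2m, H2-K1 and H2-D1, were among the most abundant messages of these Tregs, while others were scarce or absent. No member was called as different between the genotypes. Of the 38 members 22 passed the count filter, and 0 of these 22 were called higher and 0 lower in Nfkb2-/- (adjusted p under 0.05 in the edgeR quasi-likelihood test), where 1.42% of all 13347 genes tested were called. At an unadjusted p under 0.05 the count was also 0 of 22, against 13.6% of all genes, and DESeq2 and limma-voom each called 0, where they called 5.09% and 1.39% of all genes. The median log2 fold change of the 22 was 0.05, against -0.03 over all genes tested, with 15 members above 0 and 7 below, between -0.15 and 0.37. Without wild-type replicate 1 the median was -0.002 and 0 members were called. A p above the threshold does not show equal levels: the 95% interval of the difference lay within a 2-fold change for 21 of 22 members and within a 1.5-fold change for 15. The groups did not overlap in 3 members, all higher in Nfkb2-/- (H2-Q6, H2-Q7 and H2-K2), where 10.7% of all genes tested were higher without overlap and 9.9% lower.

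**Figure D1:**
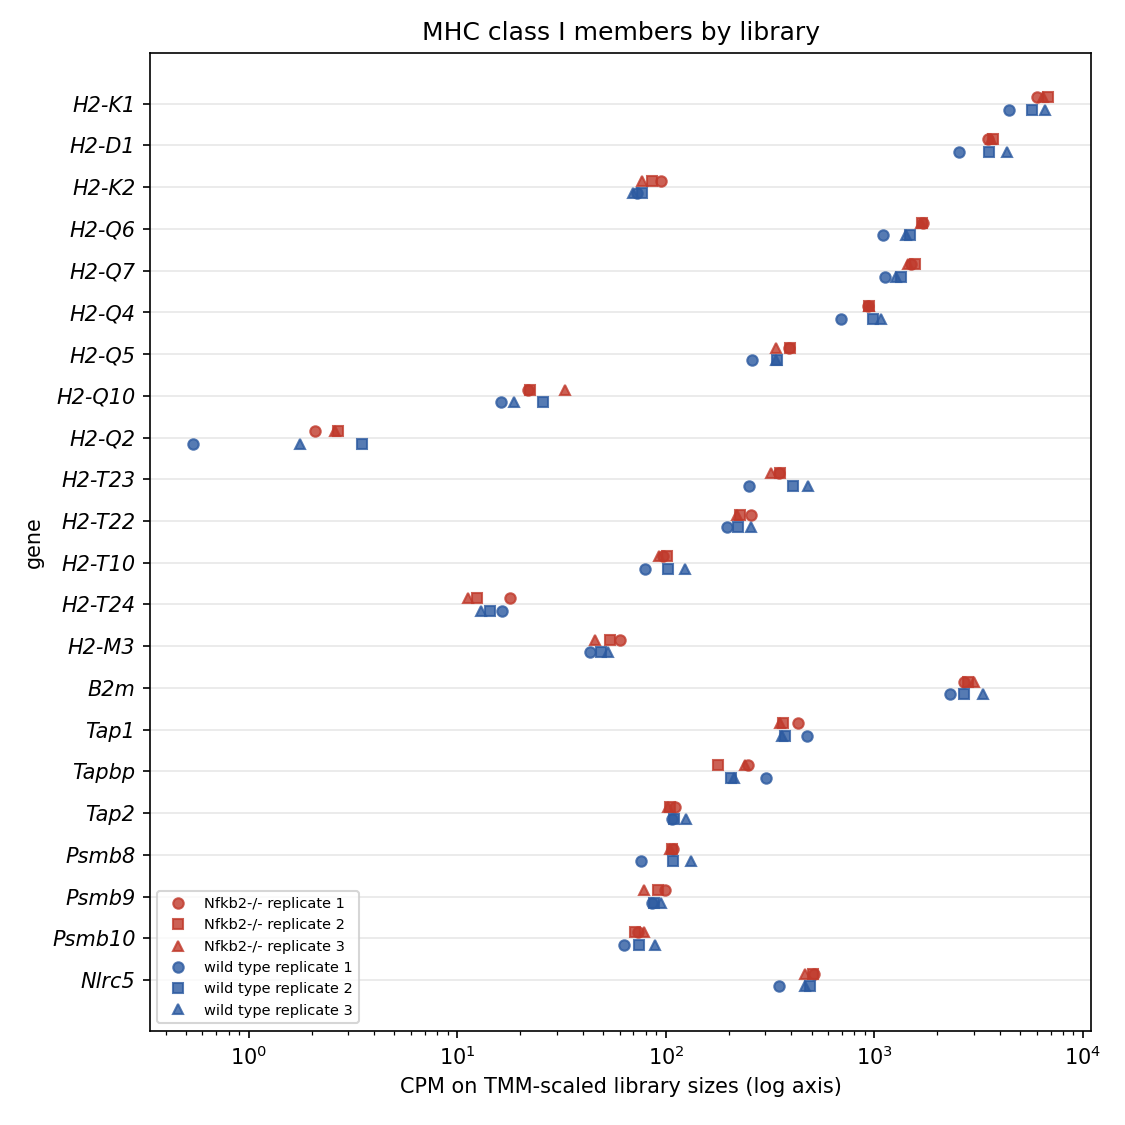
CPM of each of the 22 members tested (log axis), one point per library, with Nfkb2-/- in red and wild type in blue and the replicate given by the marker. The levels run from 0.539 CPM for H2-Q2 to 6828 CPM for H2-K1, and in most genes the red points sit inside or beside the wider spread of the blue ones.

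The classical heavy chains H2-K1 and H2-D1, which present peptides to CD8 T cells, carried more counts than any other member. H2-K1 (ENSMUSG00000061232, chromosome 17, 33996017 to 34000347, GRCm38) was at 5996, 6828 and 6422 CPM in Nfkb2-/- replicates 1 to 3 and at 4439, 5671 and 6579 CPM in wild type. The groups overlapped, since wild-type replicate 3 lay above the first and the third Nfkb2-/- libraries and wild-type replicate 1 below all others. Its log2 fold change was 0.21 (SE 0.209, 95% interval -0.28 to 0.69, adjusted p = 0.75). Leaving out wild-type replicate 1 gave 0.066, and leaving out replicate 3 gave 0.34. H2-D1 (ENSMUSG00000073411, chromosome 17, 35262730 to 35267499) was at 3503, 3698 and 3624 CPM in Nfkb2-/- and at 2554, 3545 and 4319 CPM in wild type. Here the lowest and the highest library were both wild type, with the Nfkb2-/- libraries close together between them. The difference was 0.06 on the log2 scale (SE 0.222, interval -0.46 to 0.57, adjusted p = 0.947).

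H2-K2, annotated as a transcribed pseudogene beside H2-K1, was at 94.4, 85.7 and 77.0 CPM in Nfkb2-/- and at 73.0, 76.8 and 70.0 CPM in wild type. All Nfkb2-/- libraries lay above all wild-type libraries, the closest pair by under 1 CPM. The log2 fold change was 0.23 (SE 0.122, interval -0.06 to 0.51, adjusted p = 0.492), or 0.15 without Nfkb2-/- replicate 1. Per length, H2-K1 stood above H2-D1 in all 6 libraries, with a ratio of 1.503, 1.62 and 1.56 in Nfkb2-/- and 1.53, 1.40 and 1.34 in wild type.

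The light chain had fewer counts than H2-K1 and H2-D1, but stood above both per length. Length is all annotated exon bases, 860 for B2m, 2938 for H2-K1 and 2579 for H2-D1, so ranks between genes depend on the annotation. B2m (ENSMUSG00000060802, chromosome 2, 122147686 to 122153083) was at 2683, 2827 and 2991 CPM in Nfkb2-/- and at 2318, 2691 and 3329 CPM in wild type. The lowest of the 6 libraries was again wild-type replicate 1, and the highest wild-type replicate 3. Its log2 fold change was 0.03 (SE 0.190, interval -0.41 to 0.47, adjusted p = 0.969). Scaled to gene length, B2m stood at 3295 ± 179 CPM per kb in Nfkb2-/- and 3232 ± 595 in wild type (SD, n = 3 each), rank 5 of the 13347 genes tested. H2-K1 followed at rank 8 with 2184 ± 142 and 1894 ± 366 CPM per kb, and H2-D1 at rank 17 with 1399 ± 38.3 and 1347 ± 343 CPM per kb.

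The H2-Q genes, which encode nonclassical chains of the Qa-2 type among others, held the largest fitted differences of the set, none of them called. H2-Q6 (ENSMUSG00000073409, chromosome 17, 35424850 to 35430055) was at 1709, 1696 and 1668 CPM in Nfkb2-/- and at 1099, 1478 and 1423 CPM in wild type. Every Nfkb2-/- library was above every wild-type library, and wild-type replicate 1 was set off below the others. The log2 fold change was 0.34 (SE 0.169, interval -0.05 to 0.73), with the smallest adjusted p of all members, 0.436, and it was 0.22 without wild-type replicate 1. H2-Q7 (ENSMUSG00000060550, chromosome 17, 35439155 to 35443773) was at 1497, 1575 and 1450.1 CPM in Nfkb2-/- and at 1122, 1339 and 1273 CPM in wild type. It showed the same order of the genotypes, with a log2 fold change of 0.28 (SE 0.150, interval -0.07 to 0.62, adjusted p = 0.496). Only 65.0% of the 50-base windows of H2-Q6 transcripts and 73.5% of those of H2-Q7 occur in transcripts of no other gene, so the split of reads between these paralogs is uncertain.

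H2-Q4 was at 929, 948 and 942 CPM in Nfkb2-/- and at 689, 981 and 1080.2 CPM in wild type. The coefficient of variation (SD over mean) was 1.05% in Nfkb2-/- and 22.2% in wild type, which held the lowest library and the 2 highest. Its log2 fold change was 0.04 (interval -0.40 to 0.47). H2-Q5, annotated as a polymorphic pseudogene, was at 391.6, 395 and 338 CPM in Nfkb2-/- and at 258, 341 and 337 CPM in wild type. Its groups overlapped by a single pair of libraries, and the log2 fold change was 0.26 (interval -0.09 to 0.62, adjusted p = 0.537), or 0.14 without wild-type replicate 1. H2-Q10, best known as a secreted chain of the liver, was at 21.8 to 33.0 CPM in Nfkb2-/- and 16.1 to 25.6 CPM in wild type, a log2 fold change of 0.35 (interval -0.20 to 0.90). Leaving out Nfkb2-/- replicate 3 gave 0.13. Leaving out a wild-type library gave 0.21 for replicate 1 and 0.55 for replicate 2. H2-Q2 was near the filter, with 25, 38 and 32 counts in Nfkb2-/- and 10, 44 and 21 in wild type. Its fitted change of 0.37 had an interval from -0.98 to 1.73, the widest of the set, and turned to -0.10 without wild-type replicate 1 and reached 1.13 without replicate 2. H2-Q1 and H2-Q3 held 16 and 11 counts over all 6 libraries and were not tested.

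Summed over 8 genes, the H2-Q level averaged 4541 ± 103 CPM (SD, n = 3) for Nfkb2-/- and 3830 ± 558 CPM (SD, n = 3) for wild type. The wild-type libraries were at 3186, 4169 and 4135 CPM, all below the lowest Nfkb2-/- library at 4434 CPM. This sum is given as a description, with no test. H2-Q6 and H2-Q7, whose groups did not overlap, averaged 1691 and 1507 CPM of it in Nfkb2-/-, so it is not a separate result. The sums of the classical, H2-T, H2-M, loading and immunoproteasome genes overlapped between the genotypes. The classical sum, for example, was 9593 to 10612 CPM in Nfkb2-/- and 7066 to 10968 CPM in wild type.

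**Figure D2:**
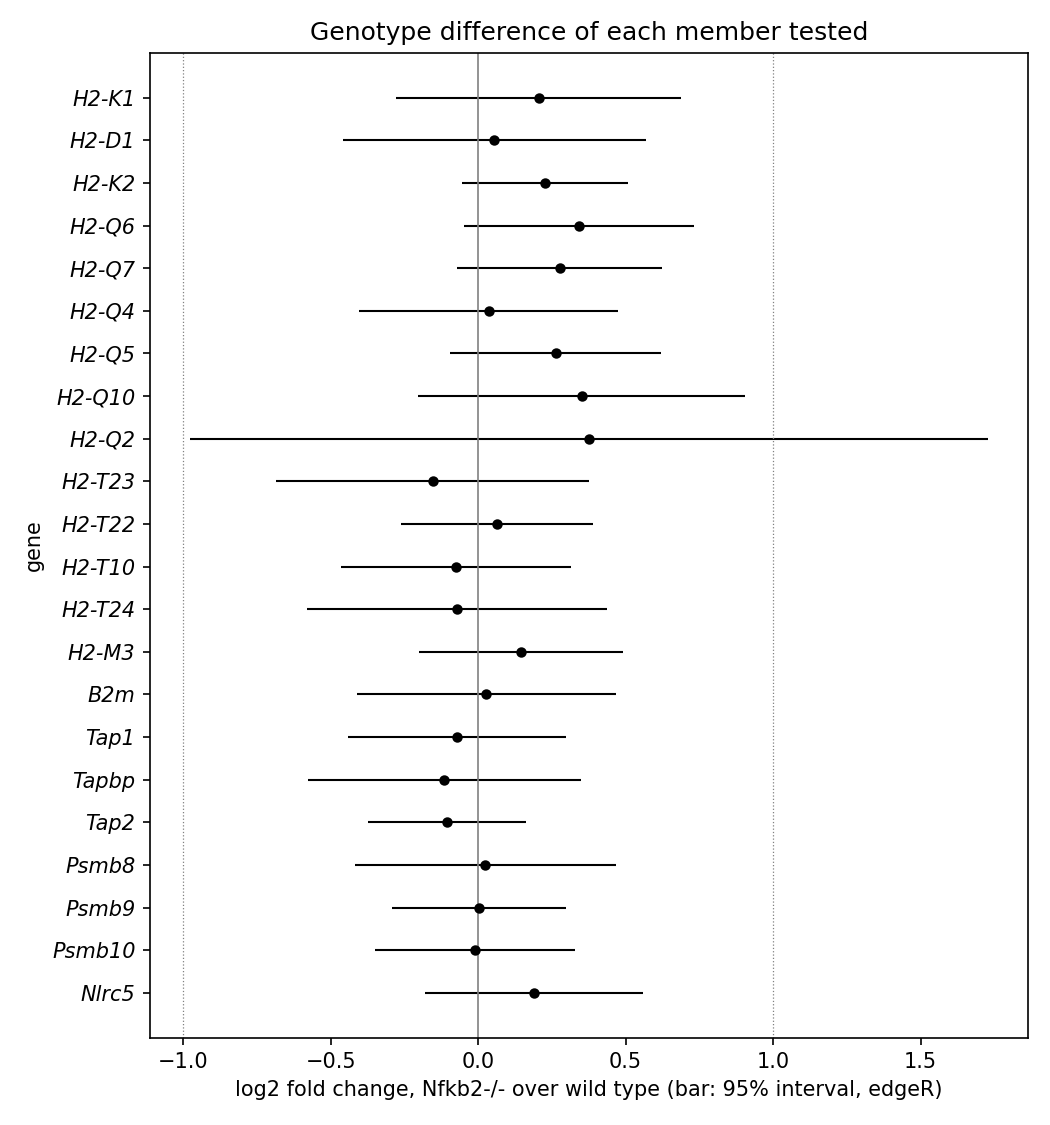
Fitted log2 fold change of each member tested (Nfkb2-/- over wild type, point) with its 95% interval (bar) from the edgeR fit, dotted lines marking a 2-fold change. Every interval includes 0, H2-Q2 alone reaches past a 2-fold change, and H2-Q6 comes nearest to leaving 0 out, with an interval of -0.05 to 0.73.

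Of the 4 H2-T genes tested, 3 had a fitted change below 0, and none was called. H2-T23 (ENSMUSG00000067212, chromosome 17, 36029773 to 36032855) encodes Qa-1, the ligand of the NKG2A receptor on natural killer and CD8 T cells. It was at 350.0, 355 and 319 CPM in Nfkb2-/- and at 251, 406 and 483 CPM in wild type. The Nfkb2-/- libraries lay between the lowest wild-type library and the other two. The log2 fold change was -0.15 (SE 0.229, interval -0.69 to 0.38, adjusted p = 0.839). Without wild-type replicate 1 it was -0.38 (edgeR adjusted p = 0.0758), and without wild-type replicate 3 it was 0.05, so 1 library set its direction.

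H2-T22, a ligand of some gamma-delta T cell receptors, was at 256, 226 and 221 CPM in Nfkb2-/- and at 196, 221 and 256 CPM in wild type, a log2 fold change of 0.06 (interval -0.26 to 0.39). Its close relative H2-T10, annotated as a polymorphic pseudogene, was at 96.9, 101 and 92.5 CPM against 79.1, 103 and 124 CPM, a change of -0.07 (interval -0.46 to 0.32). These 2 genes had the least sequence of their own: 46.5% of the 50-base windows of H2-T22 and 49.6% of those of H2-T10 occur in no other gene's transcripts. About 31.2% of the H2-T22 windows stand in H2-T10 as well. Each also shares exon bases with a gene annotated as antisense, which these counts cannot separate. H2-T24 was at 11.2 to 18.0 CPM in Nfkb2-/- and 13.0 to 16.3 CPM in wild type (log2 fold change -0.07). H2-T3, the thymus leukemia antigen gene of the gut epithelium, held 12 counts in Nfkb2-/- and 7 in wild type and was not tested.

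Of the 14 H2-M genes, only H2-M3 was expressed at a level that passed the filter. H2-M3 presents formylated peptides of bacteria and mitochondria. It was at 60.5, 53.7 and 45.8 CPM in Nfkb2-/- and at 43.3, 48.7 and 52.7 CPM in wild type. The groups overlapped, with a log2 fold change of 0.14 (SE 0.149, interval -0.20 to 0.49, adjusted p = 0.754). It was 0.043 without Nfkb2-/- replicate 1, 0.24 without Nfkb2-/- replicate 3 and 0.072 without wild-type replicate 1. No count in any library was listed for 9 H2-M genes (H2-M1, H2-M9, H2-M10.1, H2-M10.3, H2-M10.4, H2-M10.5, H2-M10.5-ps1, H2-M10.6 and H2-M11), which allows up to 0.0367 CPM over the 6 libraries at a floor of 3 counts. H2-M5 and H2-M6-ps held 5 counts each and H2-M10.2 held 9. H2-M2 had 1 count over the Nfkb2-/- libraries and 18 over wild type, 0, 9 and 9 in replicates 1 to 3, a ratio of 0.0621 (95% counting interval 0.00149 to 0.393). The B cell markers without Ighm were likewise lowest in wild-type replicate 1 among the wild-type libraries, at 112 CPM against 356 and 247 CPM; their part in the H2-M2 counts was not tested. H2-T-ps, a pseudogene without a number that the rule does not take, was at 14.4 to 22.5 CPM.

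**Figure D3:**
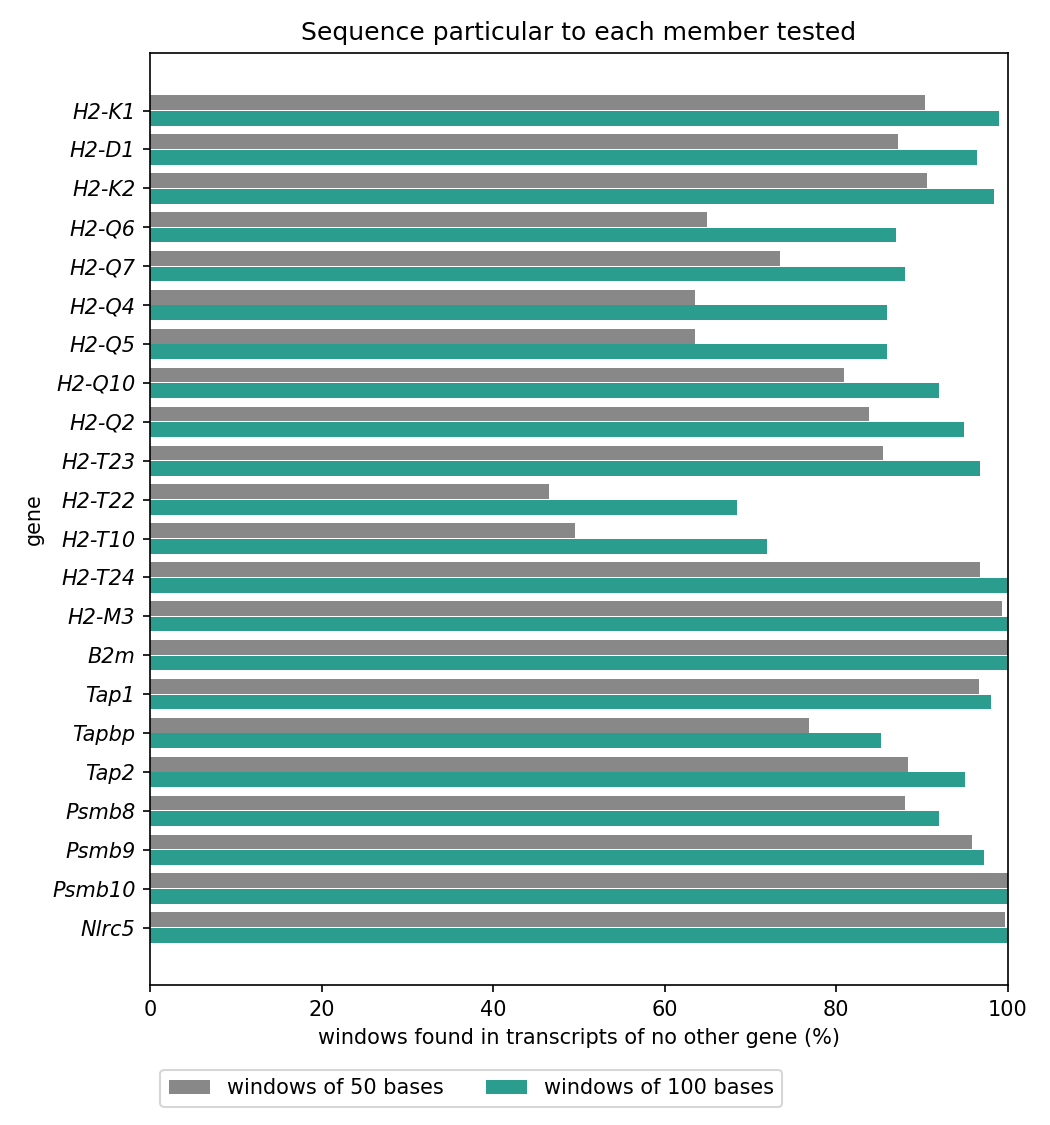
Share of the 50-base (grey) and 100-base (green) windows of each member's annotated transcripts that occur, on either strand, in transcripts of no other gene. H2-T22 and H2-T10 have the lowest shares at 50 bases (46.5% and 49.6%), followed by H2-Q4, H2-Q5 and H2-Q6 (63.6% to 65.0%), while B2m and Psmb10 stand at 100%.

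No peptide transport or loading gene was called, and all 3 had fitted changes below 0. Tap1, a subunit of the peptide transporter, was at 432, 364 and 351 CPM in Nfkb2-/- and at 473, 372 and 362 CPM in wild type, a log2 fold change of -0.07 (SE 0.160, interval -0.44 to 0.30). Tap2, the other subunit, was at 111, 104 and 102 CPM against 107, 109 and 125 CPM, a change of -0.11 (SE 0.116, interval -0.37 to 0.16), or -0.032 without wild-type replicate 3. Tapbp, the gene of tapasin, was at 248, 178 and 240.2 CPM against 304, 206 and 212 CPM, a change of -0.11 (SE 0.200, interval -0.58 to 0.35). The edgeR adjusted p of these 3 genes was 0.895, 0.772 and 0.868. Tap1 and Tapbp were highest in wild-type replicate 1, the library that was lowest for most heavy chains. Tapbp shares 24.9% of its exon bases with Gm19412 on the other strand, a gene listed at 0 counts.

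The immunoproteasome genes replace the constitutive catalytic subunits in lymphocytes. Psmb8 was at 109, 107 and 105 CPM in Nfkb2-/- and at 76.0, 108 and 132 CPM in wild type, a log2 fold change of 0.02 (interval -0.42 to 0.47). Psmb9 was at 99.5, 91.5 and 78.7 CPM against 86.0, 88.0 and 95.3 CPM, a change of 0.002 (interval -0.29 to 0.30), and Psmb10 at 73.8, 71.4 and 78.3 CPM against 62.9, 74.0 and 88.4 CPM, a change of -0.01 (interval -0.35 to 0.33). All 3 groups of libraries overlapped, with edgeR adjusted p of 0.974, 0.997 and 0.985. Per length, the ratio of Psmb8 to its constitutive counterpart Psmb5 was 0.868 ± 0.0718 in Nfkb2-/- and 0.813 ± 0.0661 in wild type (SD, n = 3 each). Psmb9 to Psmb6 was 0.441 ± 0.0935 against 0.527 ± 0.0938, and Psmb10 to Psmb7 was 3.21 ± 0.421 against 4.32 ± 0.967. The groups overlapped for all 3 ratios. Length here is all annotated exon bases (3381 for Psmb8, 3660 for Psmb9), so the size of a ratio depends on the annotation. By counts in Nfkb2-/-, Psmb8 averaged 107 CPM and Psmb5 32.9 CPM, while Psmb9 averaged 89.9 CPM and Psmb6 106 CPM. Between libraries of the same number, Psmb9 to Psmb6 and Psmb10 to Psmb7 were lower in Nfkb2-/- in 3 of 3 pairs, and Psmb8 to Psmb5 in 1 of 3; an exact paired permutation test of 3 pairs cannot go below a two-sided p of 0.25. Psmb9 and Tap1 share 212 exon bases on opposite strands.

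Nlrc5 (ENSMUSG00000074151, chromosome 8, 94434356 to 94527272), whose protein drives class I transcription, was at 512, 506 and 467 CPM in Nfkb2-/- and at 351, 489 and 463 CPM in wild type. All Nfkb2-/- libraries lay above wild-type replicates 1 and 3, and wild-type replicate 2 lay above 1 of them. Its log2 fold change was 0.19 (SE 0.160, interval -0.18 to 0.56, adjusted p = 0.687), and 0.056 without wild-type replicate 1.

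The wild-type libraries spread more widely than the Nfkb2-/- libraries. Wild-type replicate 1 had the lowest level of the 6 libraries in 16 of 22 members, and in 12 of the 14 heavy chain genes tested. Wild-type replicate 3 had the highest level in 8 of 22 members. Such shares over all genes tested were not counted, so these counts are not shown to be particular to class I genes. With wild-type replicate 1 left out, the share of all genes called rose from 1.42% to 9.04%. The coefficient of variation was larger in wild type than in Nfkb2-/- for 17 of 22 members, with medians of 17.01% and 6.10%. Over all genes tested 76.5% had the larger coefficient in wild type, with medians of 22.0% and 11.2%, so the wider spread in wild type was seen across the transcriptome too. In wild-type replicates 1 to 3 the 38 members summed to 14616, 18393 and 20839 CPM, and in the Nfkb2-/- libraries to 19195, 20249 and 19660 CPM.

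**Figure D4:**
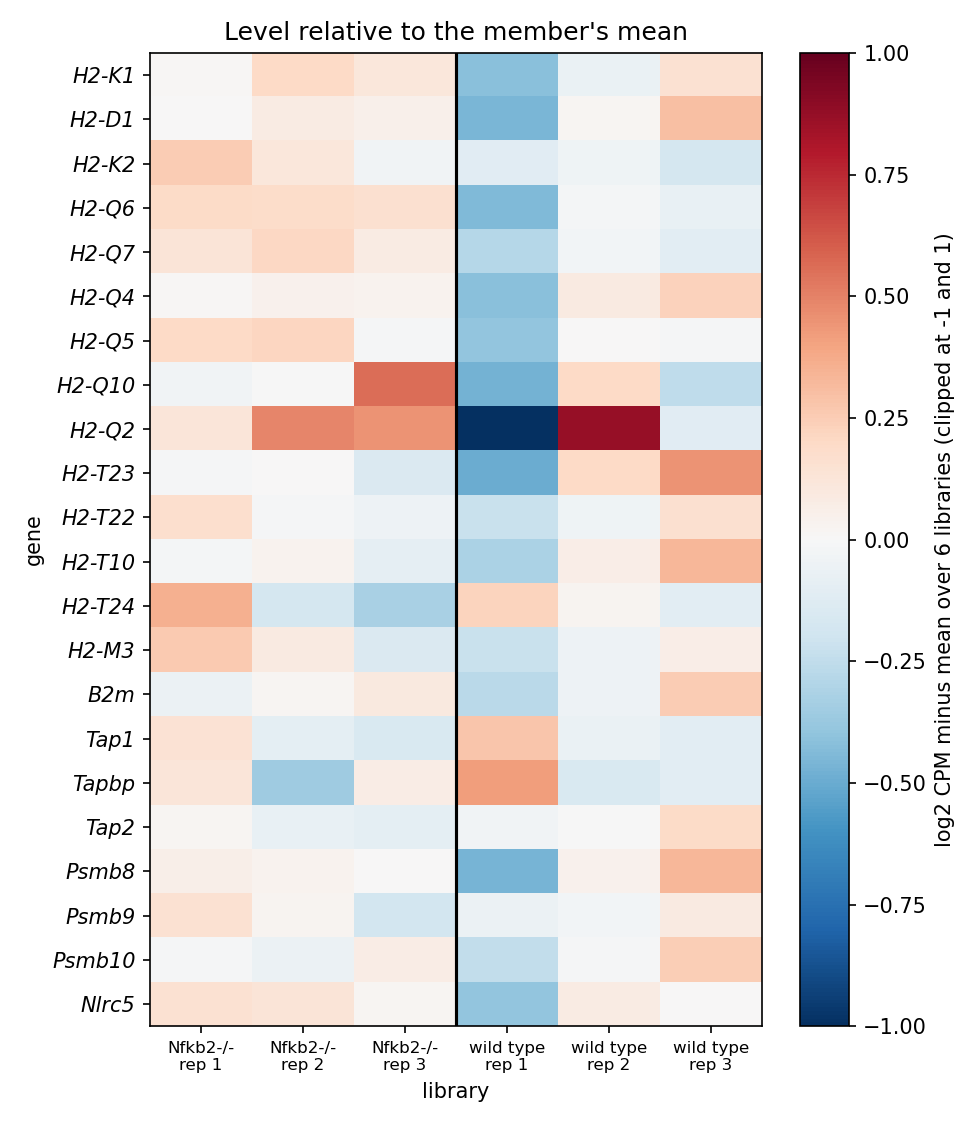
Log2 CPM of each member tested minus its mean over the 6 libraries (colour, clipped at -1 and 1), with libraries in columns and genes in rows. The column of wild-type replicate 1 holds the lowest value of 12 of 14 heavy chain genes and of B2m, and the highest of Tap1 and Tapbp.

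Per annotated exon length the order in both genotypes ran from B2m through H2-K1, H2-D1 and H2-Q6 to H2-Q4, H2-Q7, H2-Q5 and H2-T23. H2-Q4 and H2-Q7 did not differ beyond their spread in Nfkb2-/- (362 ± 3.80 and 353 ± 14.8 CPM per kb). In wild type, the ranges of mean and SD of H2-K1 and H2-D1 overlapped, as did those of H2-Q4 and H2-Q7 (353 ± 78.4 and 292 ± 26.0). Tap1, H2-T22, Tapbp and Nlrc5 stood together at 51.2 to 73.4 CPM per kb as means in either genotype. Paralogs with common sequence split their reads in a way that depends on the counting mode, on which the sources used here are silent.

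No gene that works with the members was called by edgeR. Over 4 lists with 50 partner genes in all, 45 were tested and 0 were called in either direction by edgeR, 3 of 45 had an unadjusted p under 0.05 (13.6% of all genes), and DESeq2 called 3 of 45 (5.09% of all genes) and limma-voom 0. The median log2 fold change was -0.01. All 7 constitutive proteasome and activator genes were tested (median 0.02), with Psmb7 at 0.37 and Psmb6 at 0.24. All 16 loading and trimming genes were tested (median -0.03), with Ide, a peptidase, at 0.15 and the chaperone gene Calr at 0.29.

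Transcription was the list with the widest spread, with 17 genes tested and a median of 0.11. Jak2, a kinase of the interferon-gamma receptor, was at 1023, 1196 and 1219 CPM in Nfkb2-/- and at 545, 849 and 729 CPM in wild type. Its groups did not overlap (log2 fold change 0.70, edgeR adjusted p = 0.155, 0.0198 by DESeq2). Without wild-type replicate 1, 5 partner genes were called, as were 9.04% of all genes tested. The partners called included Jak2 (0.54) and Irf2 (0.49) as higher and Ifngr2 (-0.88) and Ciita (-2.23) as lower. Irf2 and Ifngr2 are named here after their values were seen. Ciita, the class II counterpart of Nlrc5 and active in B cells, was at 1.82 to 3.58 CPM in Nfkb2-/- and 3.51, 17.8 and 7.48 CPM in wild type. B cell markers without Ighm were at 41.1 to 74.6 CPM and 112, 356 and 247 CPM in the same libraries, and their part was not tested.

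Among class I-like genes outside the H2 names, 5 of 10 were tested (median 0.22). Mr1, which presents vitamin metabolites to MAIT cells, was at 8.38 to 10.3 CPM in Nfkb2-/- and 5.14 to 9.16 CPM in wild type, a log2 fold change of 0.31. The stress ligand gene Ulbp1 was at 8.14 to 10.7 CPM against 6.72 to 18.4 CPM, a change of -0.41.

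Members were called only when the B cell marker level was added as a covariate, among the 16 alternatives run. With the 13 markers, 3 were called higher: H2-Q6 at 0.45, H2-Q5 at 0.37 and H2-Q2 at 1.23 on the log2 scale (edgeR adjusted p = 0.0223, 0.0323 and 0.0299). That sum is mostly Ighm. It put wild-type replicate 1 (369 CPM) below every Nfkb2-/- library (536 to 599.5 CPM), where the markers without Ighm put it above them. The covariate thus did not rank the libraries as the other B cell markers did. With Ighm left out of the markers, an alternative added after the data were seen, H2-Q2 (3.15) and H2-Q10 (1.17) were called (edgeR adjusted p = 0.0203 and 0.0300). H2-Q6 and H2-Q5 were not called there, at larger fitted changes of 0.75 and 0.58 (edgeR adjusted p = 0.109 and 0.168). Without Ighm the marker level did not overlap between the genotypes (41.1 to 74.6 CPM in Nfkb2-/-, 112 to 356 CPM in wild type). That fit can hardly separate the markers from genotype, so its fitted changes are extrapolated. H2-Q2 held only 10 to 44 counts per library. The fit with the 13 markers called 12.5% of all genes tested higher (23.8% in either direction), and that with Ighm left out 8.93% (20.2%), against 3 and 2 of the 22 members.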

How the data were processed

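RNA was sequenced from Tregs of 3 Nfkb2-/- and 3 wild-type samples. The authors deposited whole-number read counts per gene; HISAT2, HTSeq, FastQC, DESeq2 and build GRCm38 are named in the submitters' processing notes, and versions, read length and counting mode are not given in the sources used here. Of 55573 gene IDs, 55480 matched GENCODE M21 symbols. Genes were filtered with filterByExpr (13347 kept) and TMM-scaled, and genotypes were compared with edgeR 4.0.16 (quasi-likelihood test, Benjamini-Hochberg adjustment over all genes tested, R 4.3.3) after a test on simulated data. CPM per kb used annotated exon length. Alternatives were RLE and upper-quartile scaling, other filters, DESeq2 1.42.0, limma-voom (limma 3.58.1), a replicate block, covariates (Y-linked genes, B cell markers) and leaving out each library.

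Members and lists were chosen with earlier results of these data known. Members with a mean of at least 1 CPM are named with values, the others with counts, and the 2 genes of smallest p from each partner list. Same-numbered libraries deviated together (correlations 0.392, 0.315 and 0.135, all above the limit of 0.1 set here). The replicate number was used as a block in an alternative fit only, and the main fit and its p-values hold no block. That numbers pair libraries is not in the labels, and the correlations share the same centred deviations, so they are not independent. The third Nfkb2-/- library had a higher correlation (0.286) with the second wild-type library than with its own number. Nrdc is annotated as Nrd1. Values of 1 partner gene are not reported here. Promoters come from RefSeq (GRCm38.p6). Library totals were 12005273 to 17278521; intervals and floors on summed counts cover counting error only.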

Additional observations from a re-analysis of the deposited data

How the results depend on the processing

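No member was called under any of the 16 alternatives except the B cell covariates (3 higher, or 2 with Ighm left out, where the median was 0.20 and 0.45). The median ran from -0.002 to 0.19 when 1 library was left out. Partner calls were 2 without a count filter, 3 by DESeq2, 7 and 4 with the B cell covariates, and 0 to 5 when 1 library was left out. Over all genes, 135 were called higher and 54 lower; DESeq2 called 428 and 252, no filter 292 and 174, the Y-linked covariate 6 and 1, the B cell covariates 1666 and 1505, or 1192 and 1503, and leaving out wild-type replicate 1 gave 628 and 606, wild-type replicates 2 and 3 54 and 9, and 56 and 10, and the Nfkb2-/- replicates 12 and 3, 6 and 1, and 11 and 1. The replicate block called 0 members higher and 0 lower (median 0.06, Psmb9 -0.0025, Psmb10 0.0014) and changed no member call; over all genes it called 196 higher and 93 lower.

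In 14 members 41 of 352 values turned sign, none of them called. Psmb9 was -0.0057 with upper-quartile factors, -0.0067 without a filter, -0.0026 by limma-voom, -0.24 with the Y-linked covariate and -0.090 with Ighm left out. Psmb10 was 0.0065 by limma-voom, 0.042 with the Y-linked covariate, and 0.087 and 0.32 with the B cell covariates. With the Y-linked covariate Psmb8 was -0.0052, H2-T22 -0.10 and H2-M3 -0.15. The Y-linked sum did not overlap between the genotypes (40.0 to 275 CPM in Nfkb2-/-, 465 to 498 CPM in wild type). That fit can hardly separate it from genotype, so its lack of calls and its turned signs say little. With the B cell covariates H2-T23 was 0.094 and 0.56 and H2-T10 was 0.071 and 0.35. Leaving out 1 library gave ranges of -0.088 to 0.18 for B2m, -0.12 to 0.24 for H2-D1, -0.10 to 1.13 for H2-Q2, -0.13 to 0.17 for H2-Q4, -0.23 to 0.088 for H2-T10, -0.025 to 0.17 for H2-T22, -0.38 to 0.053 for H2-T23, -0.30 to 0.059 for H2-T24, -0.12 to 0.12 for Psmb10, -0.16 to 0.22 for Psmb8, -0.078 to 0.088 for Psmb9, -0.17 to 0.061 for Tap1 and -0.22 to 0.090 for Tapbp. The cause was not tested. Depth limits the 16 members not tested, which held at most 19 counts each.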
